A study of Mus musculus with 4 samples.

Results

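One library of hippocampal nuclei from APP knock-in mice (titled APPNL-G-F) that had exercise was compared with 1 library from wild-type (WT) mice that had exercise. Nuclei were kept at a minimum of 500 detected genes and 1000 unique molecular identifiers (UMIs, counts of single captured RNA molecules) and at less than 5% mitochondrial UMIs. This left 16348 nuclei, 6887 WT and 9461 knock-in, of 37661 in the 4 libraries of the series. After likely doublets were left out, 15253 of 34744 nuclei stayed, 6508 WT and 8745 knock-in. All 4 libraries came from female C57BL/6J-background mice, WT or NLGF, that were 8 weeks old at the start of a 10-week protocol. Exercise was a running wheel, and the treatment text names the wheel for all 4 libraries, while the titles and an exercise label set the groups apart. The other 2 libraries, 1 WT and 1 knock-in titled without exercise, are used here as a second pair of values for each gene. The number of animals behind a library is not given in the labels, and hippocampi were snap-frozen before nuclei were isolated. With 1 library on each side no test was possible, and every interval below is a 95% interval that covers counting error only.

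Background helps in reading the cell types. The knock-in mice carry a humanised and mutated amyloid-beta stretch within their own App gene, so mutant APP is made from the gene's own promoter and amyloid plaques form with age. Near plaques, microglia, the immune cells of the brain, are known to lose genes of their resting state such as P2ry12 and Cx3cr1 and to gain a plaque-associated programme, and astrocytes and oligodendrocytes are known to raise C4b, a complement gene. Wheel running is known to change neuronal activity, neurotrophic signals and the production of new granule neurons in the dentate gyrus.

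The libraries held 66573909 UMIs (WT with exercise) and 76111556 UMIs (knock-in with exercise), with medians of 7619 and 6486 UMIs per passing nucleus. Barcodes under 1200 UMIs numbered 396 in the WT library and 1 in the knock-in library, so the floors of the deposited files differed. The 2 libraries had 20 cell barcodes in common, 0.278% of the WT and 0.211% of the knock-in barcodes. Summed over the library, App stood at 472 CPM (UMIs of a gene per 1000000 UMIs) in WT and 526 in knock-in, and since the knocked-in bases are not told apart by this count, it does not check the genotype. Nuclear Malat1 took 6.04% of UMIs in WT and 3.34% in knock-in. Clustering of the 4 libraries placed most granule neurons and most oligodendrocytes of the knock-in library with exercise in clusters of their own. Cluster 4, 89.6% of which came from that library, held 96% of its granule neurons, whereas cluster 0 held 60.9% of those of WT with exercise. Cluster 8, 91.5% from the knock-in library with exercise, held 97.7% of its oligodendrocytes, and cluster 5 held 92.1% of those of WT with exercise. A cluster made mostly of 1 library may be that library and not a cell state, and this bears on every value for these classes. All CA3 neurons of both libraries lay in cluster 2, and CA1 neurons, inhibitory neurons, astrocytes and microglia of both libraries also shared clusters.

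The make-up of the nuclei differed most in the glia and the vascular cells. Microglia-like nuclei were 23 of the WT nuclei (0.353%) and 265 of the knock-in nuclei (3.03%), a log2 ratio of 3.1 (2.48 to 3.78). In the pair without exercise the same log2 ratio was 0.09. Across the alternative filters, clusterings and denominators the ratio with exercise stayed between 2.83 and 3.54. The knock-in library thus held the larger share with exercise, the shares lay close without it, and the difference between the pairs was not tested.

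Astrocyte-like nuclei went the other way, with 320 in WT (4.92%) and 109 in knock-in (1.25%). The log2 ratio was -1.98 (-2.31 to -1.66), and it was -2.25 without exercise, so both knock-in libraries held fewer astrocyte nuclei than their WT partner. Endothelial nuclei, which line blood vessels, numbered 68 in WT and 2 in knock-in, and the log2 ratio of -5.51 shrank to -2.68 when doublets were not left out. Without exercise they numbered 49 in WT and 4 in knock-in, a log2 ratio of -3.48. Vascular leptomeningeal nuclei numbered 56 in WT and 16 in knock-in, a log2 ratio of -2.23, against 0.28 without exercise. Ependymal nuclei numbered 29 in WT and 1 in knock-in.

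Cells of the oligodendrocyte lineage were more frequent in the knock-in library. Oligodendrocytes, which make myelin, were 686 WT nuclei (10.5%) and 1412 knock-in nuclei (16.1%), a log2 ratio of 0.62 (0.48 to 0.75), against 0.18 without exercise. The ratio was 1.34 with at least 1000 genes per nucleus and 0.35 as a share of named glial and vascular nuclei. Oligodendrocyte precursors numbered 43 (0.661%) and 161 (1.84%), a log2 ratio of 1.48 (0.99 to 2.0), whereas the pair without exercise stood at -0.65. Committed precursors were few, 4 in WT and 23 in knock-in.

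Named neurons were 69% of the WT and 64.3% of the knock-in nuclei. Dentate granule neurons, the input neurons of the hippocampus, were 29.7% (1930 nuclei) and 30.7% (2683 nuclei), a log2 ratio of 0.05 (-0.04 to 0.13), which turned to -0.09 with doublets kept and to -0.33 with only the 2 libraries clustered. CA1 pyramidal neurons, the main output, were 17.7% and 14.8%, a log2 ratio of -0.26 (-0.37 to -0.14). CA3 pyramidal neurons were 5.98% and 4.94%, a log2 ratio of -0.27, and a finer clustering gave 0.32. Inhibitory neurons were 6.42% and 6.23%, and their subtypes also lay close, with MGE-type cells at 48.1% and 50.5% of inhibitory nuclei. Cajal-Retzius cells, which secrete reelin, numbered 29 in WT (0.446%) and 68 in knock-in (0.778%), a log2 ratio of 0.80 (0.16 to 1.48) with exercise and 1.18 without. Immature granule neurons numbered 4 in WT and 25 in knock-in, a log2 ratio of 2.22 (0.68 to 4.20). Without exercise they numbered 1 and 10, a log2 ratio of 3.46 (0.65 to 8.90). Upper layer cortical neurons numbered 20 and 11, a log2 ratio of -1.29 (-2.50 to -0.16), and the ratios were -0.51 for CA2, -0.42 for subicular and -0.40 for deep layer cortical neurons. Nuclei of sub-clusters left unnamed were 12.1% and 13%. A sub-cluster stayed unnamed if it met too few markers of any class, but also for other reasons. These were markers or top genes of another class, few nuclei, low UMIs, leading mitochondrial genes, or glial markers at UMI counts above the median of the library. The part of these rules in the glial shares was not tested.

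**Figure D1:**
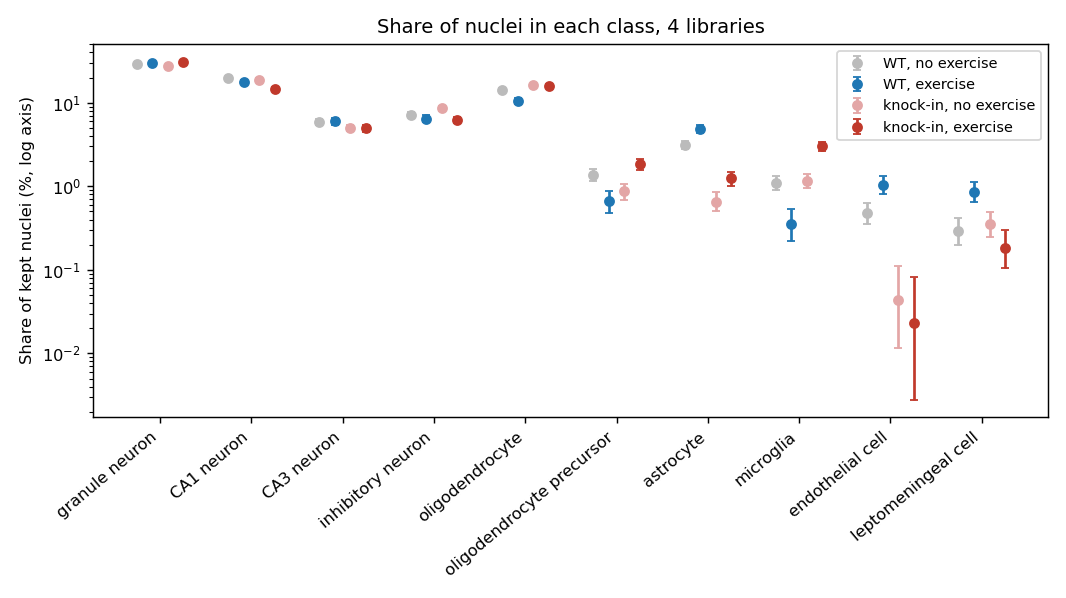
Share of each named cell class among kept nuclei (percent, log axis) in the 4 libraries, with 95% binomial intervals. Microglia of WT with exercise lie at 0.353% and of knock-in with exercise at 3.03%, while astrocytes lie lower in both knock-in libraries than in their WT partners.

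Gene levels were compared within a class as CPM over the summed UMIs of its nuclei, and a gene was counted as called at a 2-fold difference, with at least 100 UMIs over the compared libraries. In granule neurons 8.33% of 11638 genes were called, 5.41% higher and 2.92% lower in knock-in. CA1 neurons had 9.51% called (7.34% higher, 2.17% lower), CA3 neurons 9.11% (7.69% higher, 1.42% lower) and inhibitory neurons 7.52% (6.13% higher, 1.39% lower). The median log2 ratio over all tested genes was not 0 in neurons (granule 0.20, CA1 0.27, CA3 0.26, inhibitory 0.24), so small positive ratios in neurons are near this shift. Under TMM scaling the median moved to between 0.00 and 0.03, and the share of called genes that were higher went from 64.9% to 41.9% (granule), 77.2% to 40.8% (CA1), 84.4% to 57.4% (CA3) and 81.5% to 56.3% (inhibitory).

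Among 5399 genes that could be tested in all 4 neuron classes, 83 (1.54%) were called higher and 13 (0.241%) lower in every one of them. The clearest of those that were higher was Catspere1, annotated as an unprocessed pseudogene on chromosome 1 (mm10, 177808550 to 177962233, plus strand). In granule neurons it had 8 UMIs (0.573 CPM) in WT and 547 UMIs (28.1 CPM) in knock-in, against 0.505 CPM in WT and 0.162 CPM in knock-in without exercise. Granule neurons had a log2 ratio of 5.62 (4.63 to 6.83), and the other classes had 5.44 (CA1), 6.06 (CA3) and 5.30 (inhibitory). Only the knock-in library with exercise was high. Oligodendrocytes of that library had 78 UMIs (18.6 CPM), and those of WT with exercise had 0.

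Cmss1, a gene linked to ribosomal small subunit biogenesis on chromosome 16 (57302000 to 57606864, minus strand), stood in granule neurons at 42.9 CPM in WT and 306 CPM in knock-in. The libraries without exercise lay at 77.2 CPM (WT) and 111 CPM (knock-in). The log2 ratios were 2.83 (granule), 2.10 (CA1), 2.19 (CA3) and 2.24 (inhibitory), and outside the neurons 2.84 (oligodendrocytes) and 3.17 (astrocytes). In granule neurons Filip1l, which overlaps Cmss1 on the opposite strand, was at 4.87 CPM in WT and 2.77 CPM in knock-in. Over all kept nuclei, Gm42418 was also highest in the knock-in library with exercise. It stood at 676 CPM in WT and 1626 CPM in knock-in with exercise, and at 592 and 636 CPM without. Whether the values of Cmss1 and Gm42418 share a technical source was not tested.

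Other genes higher in all 4 neuron classes act in RNA handling and membrane traffic. Pabpn1, which binds poly(A) tails in the nucleus, went in granule neurons from 132 CPM in WT to 339 CPM in knock-in (198 and 184 CPM without exercise), and its log2 ratios were 1.36 (granule), 1.65 (CA1), 1.70 (CA3) and 1.56 (inhibitory). Rsrp1, an arginine and serine rich protein gene, was at 137 CPM in WT and 334 CPM in knock-in in granule neurons (201 and 206 CPM without exercise). For both genes the WT library with exercise was the lowest of the 4 and the knock-in library with exercise the highest. Vps52, a tethering subunit for traffic to the Golgi, stood at 11.8 CPM and 35.1 CPM, with 13.5 and 14.4 CPM without exercise.

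The genes that were lower in all 4 neuron classes included several that lie on the opposite strand of another gene. P2ry14, a receptor for UDP-sugars that lies within Med12l on chromosome 3 (59113855 to 59153618, minus strand), stood in granule neurons at 157 CPM in WT and 27.4 CPM in knock-in, a log2 ratio of -2.52 (-2.66 to -2.39). Without exercise the order was the reverse, 144 CPM in WT and 284 CPM in knock-in. Med12l itself went from 331 to 298 CPM, a log2 ratio of -0.15.

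Nrg3os, an antisense transcript within Nrg3, was at 202 CPM in WT and 39.4 CPM in knock-in in granule neurons, and at 164 and 358 CPM without exercise. Nrg3, which encodes a neuregulin ligand, had a log2 ratio of -0.68 in these cells. Ube3a, a ubiquitin ligase gene whose antisense partner is Snhg14, went from 424 to 147 CPM in granule neurons, a log2 ratio of -1.53, with 349 and 612 CPM without exercise. Snhg14 had a log2 ratio of -0.18.

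Acp1, a low molecular weight phosphatase gene, was at 113 CPM in WT and 30.6 CPM in knock-in in granule neurons, with 98.7 and 187 CPM without exercise. Rapgef4os1, antisense to Rapgef4, was at 36.5 and 8.83 CPM, with 31.5 and 53.8 CPM without exercise. For each of these 5 genes the knock-in library with exercise was the lowest of the 4 and the knock-in library without exercise the highest. Of the 13 genes that were lower in all 4 classes, 11 (84.6%) overlapped a gene on the opposite strand, against 36 (43.4%) of the 83 that were higher and 52.9% of all 5399 eligible genes. Of the 83, 52 (62.7%) spanned less than 20 kb, against 16.9% of the eligible genes. The labels and headers do not state the strand setting of the counting, and the part of overlapping genes in these ratios was not tested.

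**Figure D2:**
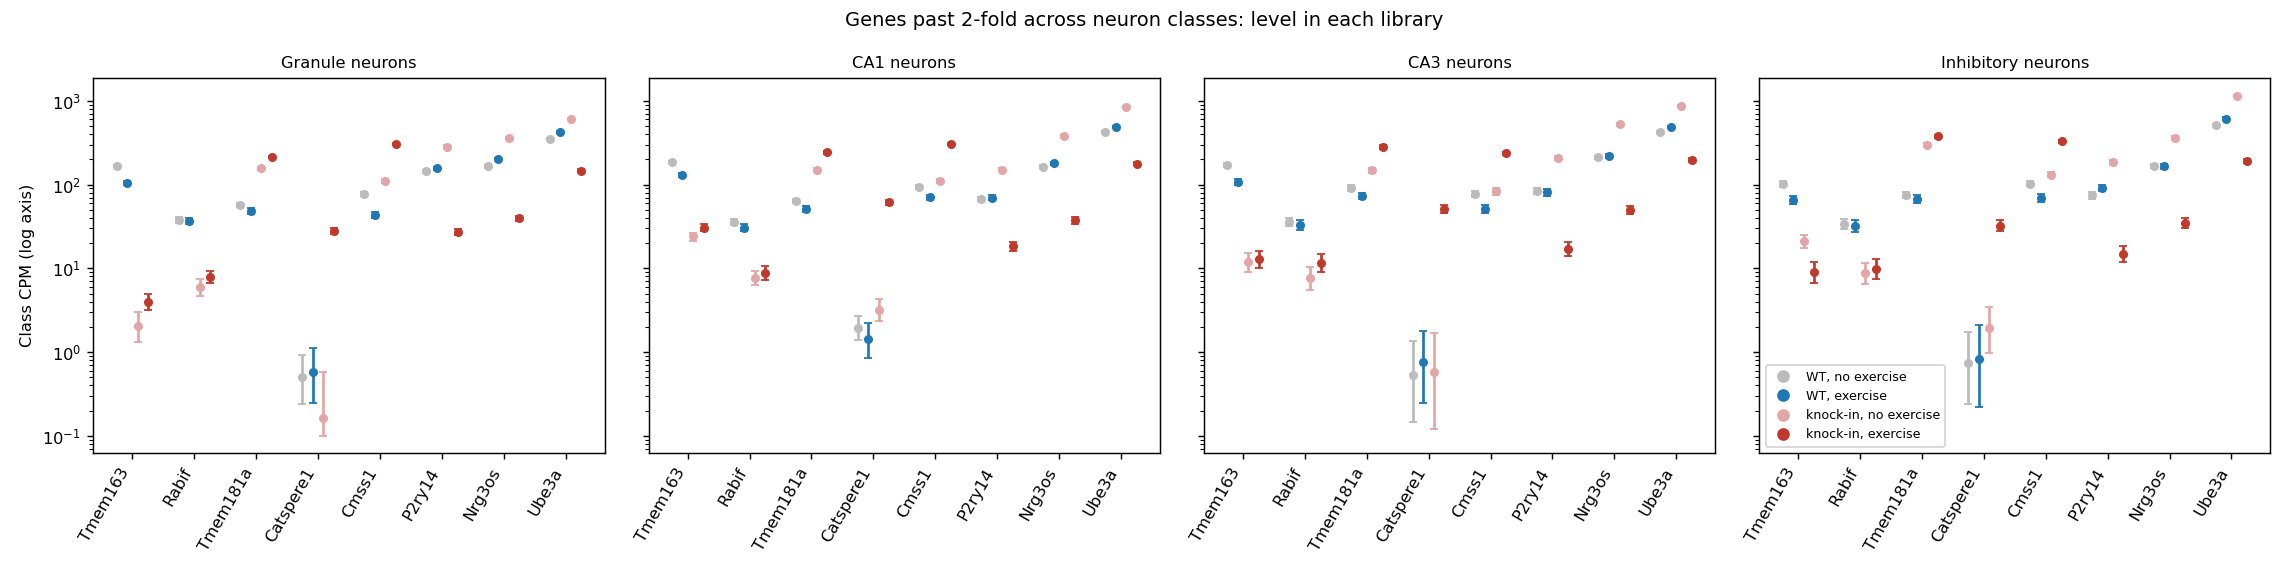
Levels of 8 genes (CPM, log axis) in 4 neuron classes and 4 libraries, with 95% counting intervals that are clipped where they leave the axis. Catspere1 and Cmss1 are high in the knock-in library with exercise, P2ry14, Nrg3os and Ube3a are low there, and Tmem163 and Rabif are low in both knock-in libraries.

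A few genes separated both knock-in libraries from both WT libraries, whatever the exercise label. Tmem163, a zinc-binding membrane protein gene on chromosome 1 (127486546 to 127679548, minus strand), was in granule neurons at 167 CPM in WT without and 104 CPM in WT with exercise, and at 2.02 CPM in knock-in without and 4.00 CPM in knock-in with exercise. Log2 ratios with exercise were -4.70 (-5.05 to -4.37, granule), -2.09 (CA1), -3.06 (CA3) and -2.84 (inhibitory). In oligodendrocytes both knock-in libraries were also low, at 66.6 and 65.8 CPM against 185 and 161 CPM. Microglia did not show this with exercise, where Tmem163 had 2 UMIs (53.4 CPM) in WT and 115 UMIs (144 CPM) in knock-in, a log2 ratio of 1.43 (-0.45 to 4.49). Mgat5, which overlaps Tmem163 on the other strand, had a log2 ratio of 0.46 in granule neurons.

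Rabif, which encodes a guanine nucleotide exchange protein for Rab GTPases on chromosome 1 (134494648 to 134508774, plus strand), was in granule neurons at 37.7 and 36.9 CPM in the WT libraries and at 5.99 and 7.96 CPM in the knock-in libraries (without and with exercise in that order). Lgr6, an R-spondin receptor gene at 134983301 to 135105276 on the same chromosome, was in granule neurons at 120 and 93.9 CPM in the WT libraries and at 12.8 and 16.5 CPM in the knock-in libraries. Both genes were low in both knock-in libraries. In CA3, where Lgr6 is scarce, its log2 ratio of -2.21 turned to 1.12 when 4000 variable genes were used for clustering.

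Tmem181a, a membrane protein gene on chromosome 17 (6256860 to 6308314, plus strand), went the other way. In granule neurons it stood at 56.7 and 48.0 CPM in the WT libraries and at 157 and 215 CPM in the knock-in libraries. Log2 ratios with exercise were 2.16 (granule), 2.24 (CA1), 1.95 (CA3) and 2.47 (inhibitory). Tmem181a has near-identical copies, and how counting split reads among them is uncertain. Zfp983, a zinc finger gene on the same chromosome, was in CA3 at 10.6 and 6.14 CPM in the WT libraries and at 28.1 and 24.5 CPM in the knock-in libraries.

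Over the 4 neuron classes, 27 genes (22 higher and 5 lower) had both knock-in libraries past 2-fold from both WT libraries in at least 1 class. Of these 27, 6 lay on chromosome 1 (22.2%, against 6.02% of tested genes) and 5 on chromosome 17 (18.5%, against 4.53%). None lay on chromosome 16, which carries App. Most called genes were not called in the pair without exercise. In granule neurons 10073 genes were tested in both pairs, with 477 called higher with exercise and 179 called higher without. Both pairs shared 12 of these, 2.52% of the 477 and 6.7% of the 179. Another 31 of the 477 were called lower without exercise, where 77 of all 10073 genes were called lower.

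App itself was close to the class shift in neurons. It stood in granule neurons at 335 CPM in WT and 392.2 CPM in knock-in, a log2 ratio of 0.23. CA1 (0.11), CA3 (0.14) and inhibitory neurons (0.12) had smaller ratios, and TMM scaling turned these 3 to -0.16, -0.08 and -0.09. Tested genes of App processing, the secretases and the App family, App included, gave 0 calls of 15 in granule neurons (8.33% of all tested genes there). Calls were 0 of 14 in inhibitory neurons (7.52%), 1 of 16 in CA1 (9.51%) and 1 of 14 in CA3 (9.11%). The CA1 call was Apbb1, an adaptor that binds the APP tail, from 26.2 to 53.0 CPM. The CA3 call was Aph1a, a gamma-secretase subunit, from 11.7 to 26.0 CPM, a log2 ratio that turned to -0.17 on thinned counts.

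Calls among listed genes in neurons were often near 2-fold, and under TMM scaling 5 of 15 dropped below it in granule neurons, 12 of 15 in CA1, 3 of 7 in CA3 and 6 of 10 in inhibitory cells. Clock genes were among those called higher. Of the tested circadian genes, 4 of 18 were called higher in granule neurons (5.41% of all tested genes there), 3 of 17 in CA1 (7.34%) and 2 of 11 in both CA3 (7.69%) and inhibitory neurons (6.13%), and 0 were called lower in any of the 4 classes. Per1, a core repressor of the clock that also responds to glucocorticoids and neuronal activity, stood in granule neurons at 10.6 CPM in WT and 21.6 CPM in knock-in, in CA1 at 14 and 33.3 CPM, in CA3 at 9.52 and 29.8 CPM and in inhibitory neurons at 9.64 and 28.8 CPM. Under TMM scaling Per1 was below 2-fold in granule neurons and CA1. Without exercise it was lower in knock-in in all 4 classes, for example 26.3 CPM in WT and 16.4 CPM in knock-in in CA1. Dbp, a clock output factor, went in granule neurons from 5.08 to 16.3 CPM. The labels do not state the time of day of tissue collection, and its part in these values was not tested. Per1, already counted among the clock genes, was also the single glucocorticoid response gene called in each of the 4 classes. This was 1 of 9 tested in granule neurons and in CA1, and 1 of 7 in CA3 and in inhibitory neurons, beside the same shares of all tested genes.

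Of 29 ion channel genes tested in each class, 4 were called higher in granule neurons (5.41% of all tested genes there), 3 in CA1 (7.34%), 3 in inhibitory neurons (6.13%) and 1 in CA3 (7.69%), and 0 were called lower. Kcnc2, a fast potassium channel gene typical of inhibitory neurons, went in granule neurons from 24.6 CPM in WT to 75.3 CPM in knock-in, with 37.5 and 18.6 CPM without exercise. The low-threshold calcium channel genes Cacna1g, Cacna1h and Cacna1i were called in CA1 and in inhibitory neurons. Cacna1h in CA3 stood at 37.6 CPM in WT and 105 CPM in knock-in, with 53.9 and 23.5 CPM without exercise.

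Of the receptor genes for glutamate and GABA, 3 of 33 were called in granule neurons (8.33% of all tested genes there), 2 of 33 in CA1 (9.51%), 1 of 30 in CA3 (9.11%) and 2 of 34 in inhibitory cells (7.52%). Grik1, a kainate receptor subunit gene that is abundant in inhibitory neurons, went in granule neurons from 6.09 to 36.9 CPM (11.1 and 6.88 CPM without exercise) and in CA1 from 6.06 to 33.1 CPM. Markers of inhibitory neurons moved with it. Their 7 listed genes, none at 0, summed to 93.4 CPM in WT and 229 CPM in knock-in in granule neurons, and to 29.1 and 130 CPM in CA1, and their part in the values of Grik1 and Kcnc2 was not tested. Oligodendrocyte markers in granule neurons summed to 404 and 485 CPM, and 6 of 12 tested myelin genes were called higher there, beside 5.41% of all tested genes.

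Neurotrophic and exercise-linked genes gave 1 call higher of 12 in granule neurons (5.41% of all tested genes there), 1 of 13 in CA1 (7.34%), 0 of 10 in CA3 (7.69%) and 3 of 13 in inhibitory cells (6.13%). Vegfa, a growth factor for vessels, was the call in CA1, at 6.21 CPM in WT and 16.8 CPM in knock-in, with 11.3 and 4.68 CPM without exercise. Bdnf, the neurotrophin most often tied to running, was at 81.6 CPM in WT and 74.9 CPM in knock-in in granule neurons, a log2 ratio of -0.12 (-0.24 to -0.01), and at 54.8 and 37.4 CPM in CA3, a log2 ratio of -0.55. Neither ratio reached 2-fold, and thinning every nucleus to 1500 UMIs gave 0.02 and 0.05.

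Immediate early genes, which report recent activity, gave 1 call of 9 in granule neurons (8.33% of all tested genes there). It was Nr4a3, from 4.73 to 10.2 CPM. Calls were 0 of 10 in CA1 (9.51%), 0 of 5 in CA3 (9.11%) and 0 of 2 in inhibitory neurons (7.52%). Chaperone genes gave 2 calls of 19 in CA1 and 1 of 16 in CA3, beside the same shares. They gave 0 of 21 in granule and 0 of 17 in inhibitory neurons. Calr, an endoplasmic reticulum chaperone gene, was one of the CA1 calls, from 20.4 to 43.5 CPM, with 42.7 and 36.9 CPM without exercise. The WT library with exercise was the lowest of the 4 for Calr. Interferon response genes were mostly too scarce in neurons. In granule neurons 1 of 4 tested was called higher (5.41% of all tested genes there), and in CA3 1 of 5 (7.69%), in both Ifi27. Inhibitory neurons had 0 of 2 (6.13%). In CA1 4 could be tested, and Stat2, Irf9 and Ifi27 were called higher (7.34% of all tested genes there). Each of these CA1 calls had a log2 ratio between 1.0 and 1.18, and all 3 lost the call under TMM scaling.

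Single genes also stood apart within a class. In CA3, Col6a1, a collagen chain gene, was at 20.4 CPM in WT and 99.4 CPM in knock-in, a log2 ratio of 2.28 (2.01 to 2.56), but at 97.6 and 31.6 CPM without exercise. The high and low libraries of Col6a1 were therefore on opposite genotypes in the 2 pairs. In inhibitory neurons, Oxt, which encodes oxytocin, had 205 UMIs in WT and 2 in knock-in, with 1 and 0 without exercise, so 1 library carried nearly all of it, and its log2 ratio of -6.92 shrank to -2.72 on thinned counts.

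In oligodendrocytes 14% of 7212 tested genes were called, with 10.6% higher and 3.41% lower in knock-in. The median log2 ratio over all tested genes was 0.08. C4b, a complement component gene on chromosome 17 (34728380 to 34743882, minus strand), had 20 UMIs (15.7 CPM) in WT and 249 UMIs (59.4 CPM) in knock-in, a log2 ratio of 1.92 (1.26 to 2.65). Without exercise it was at 25.4 CPM in WT and 8.10 CPM in knock-in. C4b was the single call among 10 tested genes of the disease-associated oligodendrocyte list. Serpina3n, a protease inhibitor gene of the same list, had 2 UMIs in WT and 35 in knock-in, a log2 ratio of 2.41 (0.45 to 5.51).

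Interferon-linked genes were chosen for description after their values were seen, apart from the listed ones. Stat2, a transcription factor of interferon signalling, went from 25.1 CPM in WT to 44.1 CPM in knock-in, a log2 ratio of 0.81 that did not reach 2-fold, with 33.1 and 30.2 CPM without exercise.

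Nlrc5, the activator of MHC class I genes, had 0 UMIs in WT and 81 in knock-in (19.3 CPM), at least 8.2-fold higher than a floor of 3 UMIs in the WT library. The libraries without exercise had 6 UMIs (WT) and 7 UMIs (knock-in). Irgm2, an interferon-induced GTPase gene, had 2 and 53 UMIs, a log2 ratio of 3.01 (1.08 to 6.09). Cd274, the checkpoint ligand PD-L1, had 0 and 34 UMIs, at least 3.44-fold higher against the same floor, and Oasl2, an interferon-induced gene of the oligoadenylate synthetase family, had 0 and 28 UMIs, at least 2.83-fold higher. H2-K1 and H2-D1, which encode MHC class I heavy chains, went from 9.42 to 19.8 CPM and from 16.5 to 32.4 CPM. Their log2 ratios were 1.07 (0.19 to 2.08) and 0.98 (0.31 to 1.71), with 12 and 21 UMIs in WT. H2-D1 was as high in knock-in without exercise, at 38.7 CPM. B2m, the MHC class I light chain gene, went from 10.2 to 12.6 CPM, a log2 ratio of 0.31 (-0.59 to 1.31). Rnf213, an interferon-induced gene, had a log2 ratio of 0.66 (-0.15 to 1.56). The intervals of B2m and Rnf213 included 0. Among the genes of this paragraph, only H2-D1 met the UMI minimum for a call, and it did not reach 2-fold.

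Nlrc5 UMIs were found in 0 of 686 WT oligodendrocytes, where 3 nuclei would be a share of 0.437%, and in 4.39% of the knock-in oligodendrocytes. After each nucleus was thinned to 1000 UMIs, the knock-in share was 1.42%, with WT still at 0. Granule neurons had 0.363% in WT and 0.335% in knock-in unthinned, and 0% and 0.0373% thinned. At least 3 UMIs of the interferon list were present in 0.583% of WT and 4.11% of knock-in oligodendrocytes, and in 0.292% and 1.49% after thinning. In granule neurons, which hold more UMIs, the unthinned shares were 2.44% and 2.57%, and the thinned shares 0.104% and 0%. These are shares of nuclei with a UMI, which depth sets in part, and not shares of nuclei that express the genes. Microglia markers within oligodendrocytes summed to 38.5 CPM in WT and 69.2 CPM in knock-in (1 and 0 of 10 at 0), and their part in these shares was not tested.

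The promoters of 5 of 9 interferon-linked genes sought were present in a RefSeq promoter table (GRCm38.p6), and the 2 with a match to the interferon response element spacing (GAAA, any 2 bases, GAAA) are shown from 250 bases before to 50 bases after the gene start of RefSeq, on the plus strand. The letters were searched on both strands, and 3.44% of the 32851 promoters in the table hold the GAAA pair. TTCNNNGAA, the spacing of a STAT dimer site, is held by 8.3%. Capitals mark the matches. In Irgm2 (chr11:58214727-58215026) TTCNNNGAA starts at -75 and the GAAA pair at -64 from the RefSeq start, both on the plus strand, and in Stat2 (chr10:128270248-128270547) the GAAA pair starts at -222 on the minus strand. GENCODE M21, used for the other positions, starts Irgm2 upstream at 58199618, where it overlaps Igtp on the same strand, so how counting split reads between these genes is uncertain. The windows of Cd274, Oasl2 and Rnf213 hold neither string, and a match describes letters and is no evidence of binding.
Irgm2: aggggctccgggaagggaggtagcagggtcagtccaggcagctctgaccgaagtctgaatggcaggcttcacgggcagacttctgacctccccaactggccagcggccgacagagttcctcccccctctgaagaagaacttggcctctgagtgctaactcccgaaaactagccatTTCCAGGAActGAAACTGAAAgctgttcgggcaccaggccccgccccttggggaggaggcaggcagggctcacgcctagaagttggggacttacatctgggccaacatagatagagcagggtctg
Stat2: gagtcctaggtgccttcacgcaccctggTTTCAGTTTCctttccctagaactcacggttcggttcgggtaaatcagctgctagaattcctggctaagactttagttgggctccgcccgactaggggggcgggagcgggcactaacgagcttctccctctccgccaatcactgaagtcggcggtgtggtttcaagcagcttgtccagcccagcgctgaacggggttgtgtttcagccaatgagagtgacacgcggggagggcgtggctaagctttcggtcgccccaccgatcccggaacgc

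Of 15 tested myelin genes, 0 were called higher and 1 lower, beside 10.6% and 3.41% of all tested genes. Mbp, the myelin basic protein gene, had a log2 ratio of -0.25. The gene called lower was Ugt8a, which makes the myelin lipid galactosylceramide, at 854 CPM in WT and 423 CPM in knock-in, a log2 ratio of -1.01 (-1.12 to -0.90), with 738 and 651 CPM without exercise.

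By the rule for named genes, the lowest ratios in oligodendrocytes were those of Fth1, Cst3 and Ubb. Fth1, the ferritin heavy chain gene, stood at 730 CPM in WT and 163 CPM in knock-in, with 461 and 1037 CPM without exercise. Cst3, a secreted protease inhibitor gene, went from 253 to 53.4 CPM, Ubb, a ubiquitin gene, from 207 to 46.3 CPM and Gapdh, of glycolysis, chosen after its values were seen, from 128 to 32.2 CPM. All 6 tested mitochondrial genes were also called lower, beside 3.41% of all tested genes. For Fth1, Cst3, Ubb and Gapdh the knock-in library with exercise was the lowest of the 4 and the knock-in library without exercise the highest.

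The highest ratios included genes of neurons. Kcnip4, a potassium channel partner gene of neurons, stood in oligodendrocytes at 1145 CPM in WT and 4332 CPM in knock-in, with 1928 and 726 CPM without exercise. Lrrtm4, a synaptic adhesion gene, went from 446 to 1888 CPM, and Zfp804b from 19.6 to 122 CPM. Of the listed receptor genes 17 of 29, and of the ion channel genes 16 of 28, were called higher in these cells, beside 10.6% of all tested genes. The median UMIs of an oligodendrocyte nucleus were 1738 in WT and 2805 in knock-in. The part of neuronal RNA in the oligodendrocyte values was not tested.

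**Figure D3:**
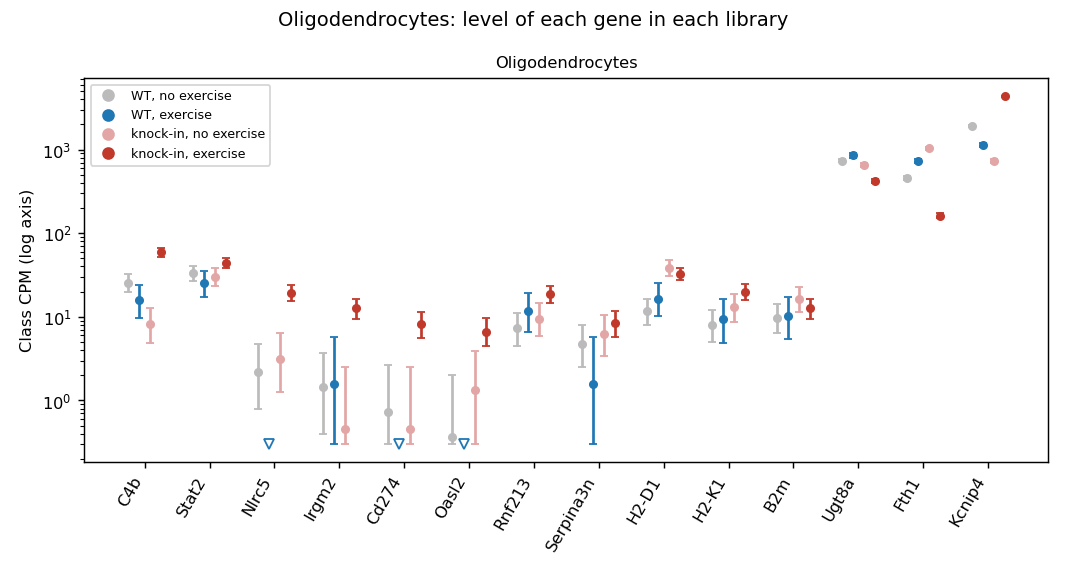
Levels of 14 genes (CPM, log axis) in oligodendrocytes of the 4 libraries, with 95% counting intervals and open triangles for 0 UMIs. C4b and Kcnip4 are highest in the knock-in library with exercise, and Fth1 and Ugt8a are lowest there.

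In astrocytes, 4.6% of 2524 tested genes were called, 3.29% higher and 1.31% lower. TMM scaling moved the higher share of the calls from 71.6% to 43.4% and the median log2 ratio from 0.04 to -0.11. C4b had 38 UMIs (42.5 CPM) in WT and 106 UMIs (264 CPM) in knock-in, a log2 ratio of 2.63 (2.08 to 3.21). Gfap, the intermediate filament gene of reactive astrocytes, had 107 UMIs (120 CPM) and 180 UMIs (448 CPM), a log2 ratio of 1.90 (1.55 to 2.26). The libraries without exercise were in the other order for both genes, C4b at 128 CPM in WT and 37.0 CPM in knock-in, and Gfap at 286 and 185 CPM. These were the 2 calls among 6 tested genes of the disease-associated astrocyte list.

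The share of astrocyte nuclei with a C4b UMI, thinned to 1000 UMIs, was 4.69% in WT and 22.9% in knock-in (10% and 53.2% unthinned). For Gfap it was 10.3% and 18.3%. In granule neurons the thinned shares were 0% and 0.447% for C4b and 0.363% and 0.485% for Gfap, well under those of astrocytes. The median UMIs of an astrocyte nucleus were 2194 in WT and 3132 in knock-in.

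Of 12 tested genes of the homeostatic astrocyte list, 1 was called higher and 0 lower, beside 3.29% and 1.31% of all tested genes. That gene was Aqp4, the water channel of astrocyte endfeet, at 122 CPM in WT and 251 CPM in knock-in, with 480 and 155 CPM without exercise. Its log2 ratio of 1.04 ranged from 0.36 to 1.08 over the alternatives. The glutamate transporter gene Slc1a2 went from 5831 to 5235 CPM, and the glutamine synthetase gene Glul from 519 to 358 CPM, neither past 2-fold. Apoe, the main lipid carrier of the brain, was at 1330 CPM in WT and 1865 CPM in knock-in, a log2 ratio of 0.49 that turned to -0.28 when only the 2 libraries were clustered. Its levels without exercise were higher in both, 5217 and 4330 CPM.

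By the rule for named genes, the lowest ratios in astrocytes were those of Wdr17, from 1394 to 301 CPM, Tshz2, a zinc finger gene, from 199 to 57.2 CPM, and Nnat, an imprinted membrane protein gene, from 518 to 152 CPM. The highest were those of Cmss1, from 103 to 930 CPM, C4b, given above, and Zfp385b, from 59.3 to 274 CPM. Without exercise Nnat stood at 380 CPM in WT and 933 CPM in knock-in, again the other order. Markers of CA1 neurons within astrocytes summed to 376 CPM in WT and 659 CPM in knock-in, those of oligodendrocytes to 1143 and 1144 CPM, with none at 0, and their part in the astrocyte values was not tested.

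**Figure D4:**
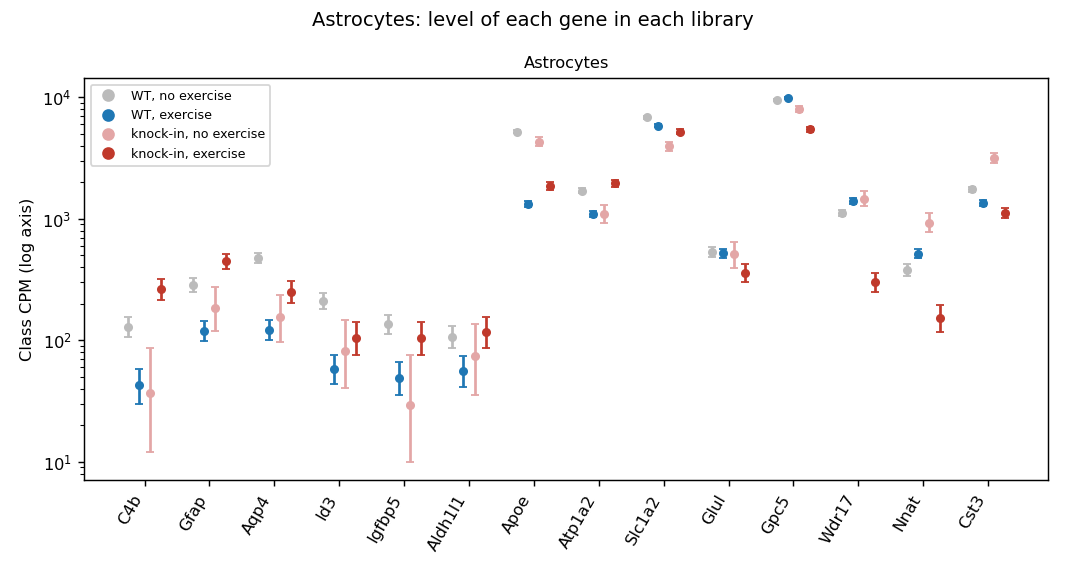
Levels of 14 genes (CPM, log axis) in astrocytes of the 4 libraries, with 95% counting intervals. C4b and Gfap are highest in the knock-in library with exercise, and among the libraries without exercise they are higher in WT.

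Microglia offered the fewest WT nuclei, 23 against 265, so the intervals are wide. Of 1897 tested genes, 32.8% were called, 25.6% higher and 7.22% lower, and TMM scaling moved the higher share of the calls from 78% to 95.6%, with the median log2 ratio going from 0.09 to 0.52. Of 9 tested genes of the plaque-induced and disease-associated list, 6 were called higher and 1, Fth1, lower, beside 25.6% and 7.22% of all tested genes. The intervals of 4 of the 6 lay above 0, and those of Apoe and Ctsb did not. Microglia held 798716 UMIs in knock-in and 37447 in WT. The 100 UMI minimum was thus met mostly through knock-in and favoured genes that are high there. Listed genes under the minimum went both ways, with log2 ratios of -1.02 (Tyrobp), -1.09 (Cst7), 2.04 (Csf1) and 1.52 (Lpl).

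Myo1e, a motor protein gene seen in microglia near plaques, had 1 UMI (26.7 CPM) in WT and 509 UMIs (637 CPM) in knock-in, a log2 ratio of 4.58 (2.09 to 9.88). Without exercise it had 9 UMIs (49.0 CPM) in WT and 52 UMIs (352 CPM) in knock-in. Ctnna3, an alpha-catenin gene chosen after its values were seen, had 1 UMI and 842 UMIs (1054 CPM), and 0 UMIs and 116 UMIs (785 CPM) without exercise. Both knock-in libraries were high for the pair of genes and both WT libraries low.

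Ank, a pyrophosphate transport gene, stood at 134 CPM in WT and 854 CPM in knock-in, a log2 ratio of 2.68 (1.45 to 4.30), and at 120 and 406 CPM without exercise. Igf1, a growth factor gene, had 0 and 142 UMIs, at least 2.22-fold higher than a floor of 3 UMIs, and in knock-in without exercise it reached 183 CPM. Axl, Lilrb4a and Itgax had 0 UMIs in the WT library and 63, 64 and 36 UMIs in knock-in, but the floor of 3 UMIs in so few nuclei lies at 80.1 CPM, so no fold can be given. Csf1 had 1 UMI and 88 UMIs, a log2 ratio of 2.04 (-0.47 to 7.36).

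Genes of the resting state lay on the other side. Of 8 tested homeostatic genes 0 were called higher and 4 lower, beside 25.6% and 7.22% of all tested genes. P2ry12, a receptor for ADP, was at 1148 CPM in WT and 391 CPM in knock-in, a log2 ratio of -1.56 (-2.02 to -1.06), with 865 and 900 CPM without exercise. Like P2ry14, P2ry12 overlaps Med12l on the opposite strand, and it was lower in neurons too. Granule neurons went from 17.7 to 5.44 CPM, a log2 ratio of -1.70, and the others had -1.44 (CA1), -1.25 (CA3) and -1.09 (inhibitory). The fall of P2ry12 was thus not particular to microglia, and the part of the overlap was not tested. Cx3cr1, the fractalkine receptor gene, was at 1228 and 412 CPM, a log2 ratio of -1.58 (-2.02 to -1.10), with 707 and 616 CPM without exercise.

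Siglech went from 1228 to 500 CPM and Selplg from 1122 to 440 CPM. The knock-in library with exercise was the lowest of the 4 for all 4 genes. Not all microglia genes were lower: Csf1r, the survival receptor gene, had a log2 ratio of -0.01. The complement genes C1qa, C1qb and C1qc had log2 ratios of -1.75, -1.33 and -1.66, with C1qa turning to 0.44 on thinned counts. C1qa (66 UMIs) and C1qc (85 UMIs) were under the UMI minimum for a call. Without exercise the order was the reverse for all of them, with log2 ratios of 0.98, 0.77 and 1.01. Apoe had 3 UMIs (80.1 CPM) in WT and 144 UMIs (180 CPM) in knock-in, a log2 ratio of 1.17 (-0.41 to 3.46). Without exercise Apoe was at 185 CPM in WT and 961 CPM in knock-in.

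Myo1e was detected in 1 of 23 WT microglia (4.35%, 0.11% to 21.9%) and in 46% of the knock-in microglia (39.9% to 52.2%). Thinned to 1000 UMIs, it was detected in 0 of 23 and in 30.9%, and the thinned shares without exercise were 3.54% in WT and 19.3% in knock-in. In thinned nuclei P2ry12 was detected in 69.6% of WT and 31.3% of knock-in microglia, and Cx3cr1 in 69.6% and 33.6%. Rnf213, an interferon-induced ubiquitin ligase gene, had 2 and 166 UMIs, a log2 ratio of 1.96 (0.08 to 5.02).

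Neuronal transcripts were higher in knock-in microglia as well. Kcnip4 stood at 1282 CPM in WT and 5191 CPM in knock-in, with 2502 and 718 CPM without exercise, and it was detected in 69.6% and 100% of the thinned nuclei. The markers of inhibitory neurons within microglia summed to 107 CPM in WT (5 of 7 at 0) and 532 CPM in knock-in (0 of 7 at 0), and those of oligodendrocyte precursors to 160 and 391.9 CPM (4 and 0 of 7 at 0). The median UMIs of a microglia nucleus were 1425 in WT and 2550 in knock-in. The part of RNA from other cells in the microglia values was not tested.

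**Figure D5:**
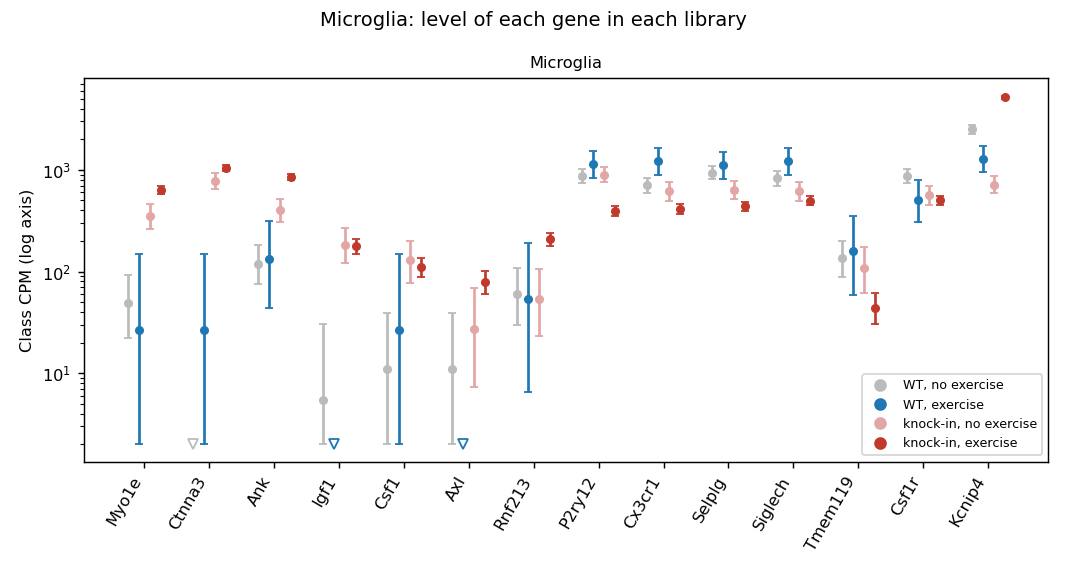
Levels of 14 genes (CPM, log axis) in microglia of the 4 libraries, with 95% counting intervals, clipped at the axis, and open triangles for 0 UMIs. Myo1e, Ctnna3 and Ank are higher in both knock-in libraries than in both WT libraries, while P2ry12, Cx3cr1, Selplg and Siglech are lowest in the knock-in library with exercise.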

How the data were processed

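Single-nucleus RNA was profiled with 10x Genomics 3' v3.1 chemistry. The deposited matrices hold whole-number UMI counts per gene and barcode, not normalized. Cell Ranger 3.1.0 and mm10 are named per the submitters' processing notes, and the matrix headers give version 5.0.1. Nuclei were filtered as stated, and likely doublets, scored within each library by simulated pairs of nuclei, were left out (5.51% of WT and 7.57% of knock-in nuclei with exercise). The 4 libraries were clustered together without integration (scanpy 1.11.5, leidenalg 0.10.2, 2000 variable genes, 30 components, resolution 1.0). The 28 clusters were split into 168 sub-clusters, each named "like" a class only from at least 3 detected listed markers (50 stayed unnamed). The class names are rebuilt, not the authors'. Counts were summed per library and class and given as CPM. Intervals are exact Poisson, Clopper-Pearson or conditional binomial, at 95%. They cover counting error only. The scripts were tested on simulated data. Named genes were the 3 highest and 3 lowest per class by the interval bound nearest 0 (at least 20 CPM), the 6 each way shared by the neuron classes, and the called members of 17 gene lists. Members and lists were chosen with earlier results of these data known. Alternatives changed filters, clustering, scaling (TMM, median of ratios, trimmed totals), thinning and the UMI minimum. Of 32285 gene IDs, 32235 matched GENCODE M21, which gave positions on mm10. Chromatin accessibility data that the series mentions were not analysed here. Some results are not reported here.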

Additional observations from a re-analysis of the deposited data

Results flagged for a closer look

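For 27 of 144 gene and class combinations compared in both pairs, the knock-in to WT ratio was past 2-fold in opposite directions in the pair without exercise and the pair with exercise. Each pair is 1 library against 1, and the difference between the pairs was not tested. The values are log2 ratios, first without and then with exercise.

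Genes lower in knock-in with exercise and higher without were mostly the antisense-overlapped neuronal genes. Nrg3os was at 1.12 and -2.36 in granule neurons, 1.22 and -2.26 in CA1, 1.30 and -2.13 in CA3, and 1.10 and -2.26 in inhibitory neurons. P2ry14 was at 1.17 and -1.93 in CA1, 1.30 and -2.24 in CA3, and 1.31 and -2.60 in inhibitory neurons. Acp1 was at 1.02 and -1.85 in CA3 and at 1.01 and -1.79 in inhibitory neurons. Ube3a was at 1.03 and -1.29 in CA3 and at 1.13 and -1.69 in inhibitory neurons, and Rapgef4os1 at 1.10 and -1.80 in CA3.

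Genes higher in knock-in with exercise and lower without were Kcnc2 in granule neurons (-1.01 and 1.61), Irf9 in CA1 (-1.0 and 1.0), Vegfa in CA1 (-1.27 and 1.43), Cacna1h in CA3 (-1.20 and 1.48), Col6a1 in CA3 (-1.63 and 2.28) and Grm4, a metabotropic glutamate receptor gene, in inhibitory neurons (-1.02 and 1.23).

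In oligodendrocytes C4b was at -1.65 and 1.92, Lrrtm4 at -1.22 and 2.08 and Zfp804b at -1.05 and 2.64, while Cst3 was at 1.20 and -2.24, Fth1 at 1.17 and -2.16 and Ubb at 1.58 and -2.16. In astrocytes C4b was at -1.79 and 2.63, Aqp4 at -1.63 and 1.04, and Nnat at 1.29 and -1.77.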

How the results depend on the processing

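No paired analysis was possible because each group has 1 library. Of 2157 alternative values for 217 gene ratios, 1865 moved within the counting interval, 270 moved outside it, 22 changed sign and 185 dropped below 2-fold. Among the 36 ratios named by rank, 0 changed sign and 2 dropped below 2-fold. The cause of the changes was not tested.

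Of the share ratios, granule neurons moved to -0.09 with doublets kept, -0.33 with 2 libraries clustered and 0.15 of named neurons. CA3 moved to 0.32 at resolution 2.0 and 0.21 with 4000 variable genes, and oligodendrocytes to 1.34 at 1000 genes and 0.35 of glia.

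Counts of genes past 2-fold moved as follows. Thinning to 1500 UMIs gave 518 in granule, 418 in CA1, 150 in CA3, 124 in inhibitory neurons and 278 in microglia, against 970, 1049, 812, 682 and 623. TMM and median-of-ratios scaling gave 622 and 630 in CA1, 465 and 456 in CA3, and 419 and 409 in inhibitory neurons. A minimum of 200 UMIs gave 500 in CA3, 413 in inhibitory neurons, 634 in oligodendrocytes, 40 in astrocytes and 274 in microglia, and one of 50 UMIs 1535, 314 and 1377 in the 3 glial classes, against 1007, 116 and 623. Keeping doublets gave 220 in astrocytes.

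Sign changes under TMM and median-of-ratios scaling were App in CA1 (-0.16 and -0.14, and -0.01 by trimmed totals), in CA3 (-0.08 and -0.09) and in inhibitory neurons (-0.09 and -0.10), and Mertk in microglia (0.05, TMM alone). On thinned counts they were Bdnf in granule (0.02), CA3 (0.05) and inhibitory neurons (0.50), Aph1a in CA3 (-0.17), Apoe (-0.01), Clu (-0.44) and Id3 (-1.11) in astrocytes and C1qa in microglia (0.44). With 2 libraries clustered they were Bdnf in granule neurons (0.01), Lgr6 in CA3 (0.41; 1.04 at resolution 2.0 and 1.12 with 4000 genes), and Apoe (-0.28) and Clu (-0.01) in astrocytes.

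Depth limits the WT microglia most, where 3 UMIs correspond to 80.1 CPM.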
